A study of Mus musculus with 33 samples.

Results

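Resting microglia that remained in the brain under a CSF1R inhibitor were compared with resting microglia of vehicle mice, across all genes of the deposited tables. The libraries were chosen by their labels, 6 with the inhibitor and 5 with vehicle, which makes 11 of the 33 libraries of the series. All 33 came from sorted brain cells of mice with a disease induction labelled Cortical MS, a mouse model of cortical multiple sclerosis. The inhibitor and the vehicle groups therefore share the disease, and no library came from a healthy mouse. Resting microglia were sorted as cells with intermediate CD45 and intermediate CD11b. The other sorted populations, each again with 6 inhibitor and 5 vehicle libraries, were activated microglia with high CD45 and CD11b and no CCR2, and blood-derived phagocytes with CCR2. The labels give no name, dose or duration for the inhibitor, no strain, age or sex, and no cell number or animal for a single library. The p-values below therefore measure only the spread between libraries, and how many microglia were left in each brain is not measured by these files.

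CSF1R is the receptor tyrosine kinase for the cytokines CSF1 and IL-34. Brain macrophages of the resident type, the microglia, need its signal to survive, and blocking its kinase depletes them. The receptor signals through PI3 kinase, AKT and the MAP kinases ERK1 and ERK2, which in macrophages induce the D cyclins that start a cell cycle and maintain survival proteins of the BCL2 family. Microglia that persist during such a block are the cells examined here.

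Depth over the 11 libraries ran between 11789803 and 21243113 counts, all in protein-coding genes, with 13540 to 14861 genes detected by 1 count or more. Genes detected averaged 14003 ± 373 with the inhibitor and 14238 ± 438 with vehicle (SD, n = 6 and n = 5). On the first principal component, which held 21.2% of the variance, inhibitor and vehicle libraries were mixed. Y-linked transcripts marked 2 of the 6 inhibitor libraries and 2 of the 5 vehicle libraries as male. One library of each group stood apart in several gene lists below. Inhibitor replicate 4 had the highest level of mitosis genes of its group, and vehicle replicate 2 had the highest level of monocyte-derived cell markers.

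The sorted cells carried a microglial profile in both groups. P2ry12, the purinergic receptor that guides microglial processes, averaged 3014 ± 733 CPM (counts scaled to library size) with the inhibitor and 2831 ± 677 CPM with vehicle. Tmem119, a surface protein used to tell microglia from other macrophages, averaged 2818 ± 543 CPM against 2696 ± 383 CPM. Cx3cr1, the fractalkine receptor, averaged 4478 ± 706 CPM with the inhibitor and 3934 ± 646 CPM with vehicle, and Sall1, a transcription factor of microglial identity, 432.4 ± 43.8 CPM and 379.4 ± 68.3 CPM (SD, n = 6 and n = 5 throughout). Of the genes used in sorting, Ptprc, which encodes CD45, averaged 673.9 ± 96.5 CPM with the inhibitor and 691.3 ± 96.2 CPM with vehicle, and Itgam, which encodes CD11b, 1824 ± 132 CPM and 1828 ± 198 CPM. Together the 10 microglia markers summed to 32752 to 46580 CPM in the inhibitor libraries and 31841 to 42521 CPM in the vehicle libraries. All 10 were tested, 8 of them had a log2 fold change above 0, beside 48.8% of all genes tested, and 2 below, and none had an unadjusted p under 0.05. Ccr2, the monocyte chemokine receptor that was used to sort the other populations, was low at 2.83 ± 1.72 CPM with the inhibitor and 7.66 ± 7.65 CPM with vehicle, and the groups overlapped.

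No gene passed the threshold between the groups. Of 12226 genes tested with edgeR's quasi-likelihood F test, 0 were called at a Benjamini-Hochberg adjusted p under 0.05, a share of 0%, and the smallest adjusted p was 0.654. At an unadjusted p under 0.05 there were 671 genes, or 5.49% of those tested: 432 lower with the inhibitor, 3.53%, and 239 higher, 1.95%. Over all genes the median log2 fold change was -0.00 and 51.2% lay below 0. In 35 genes every inhibitor library lay below every vehicle library, 0.286% of those tested, and in 25 genes every one lay above, 0.204%. For the 8632 genes with a mean of at least 10 CPM, the median standard error of the log2 fold change was 0.127 and the median half-width of its 95% interval was 0.271. DESeq2 called 16 genes, 0.139% of the 11534 with an adjusted p, of which 15 were lower and 1, Cnnm3, was higher. The limma fits on the counts and on log2 FPKM called 0. Because edgeR called none, the values below describe genes and gene lists and call no gene changed.

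**Figure D1:**
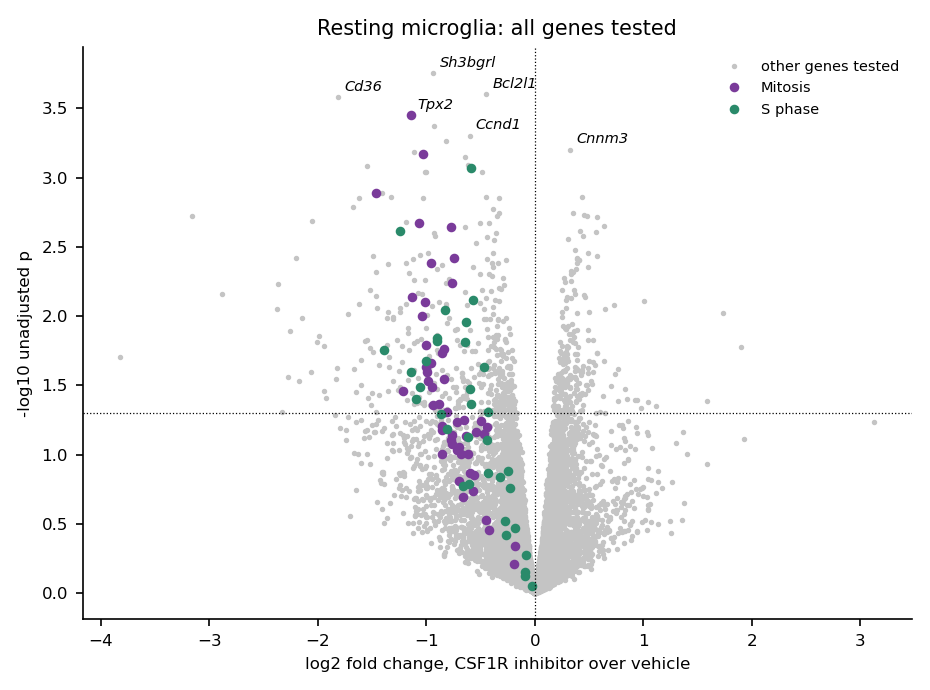
Log2 fold change of the CSF1R inhibitor over vehicle in resting microglia (x axis) against -log10 of the unadjusted edgeR p (y axis) for 12226 genes. Each point is a gene, with mitosis genes purple and S phase genes green, and the dotted line marks the unadjusted threshold of 0.05. The 50 mitosis and the 34 S phase genes all lie left of 0.

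The 4 genes given with the comparison, Tpx2, Cd36, Bcl2l1 and Ccnd1, had been picked with results of these libraries in view, so their separation describes them and adds no support. Each of them had every inhibitor library below every vehicle library, an edgeR adjusted p of 0.654, and a call by DESeq2. Their levels in each library are in the plot of 8 genes by library.

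**Figure D2:**
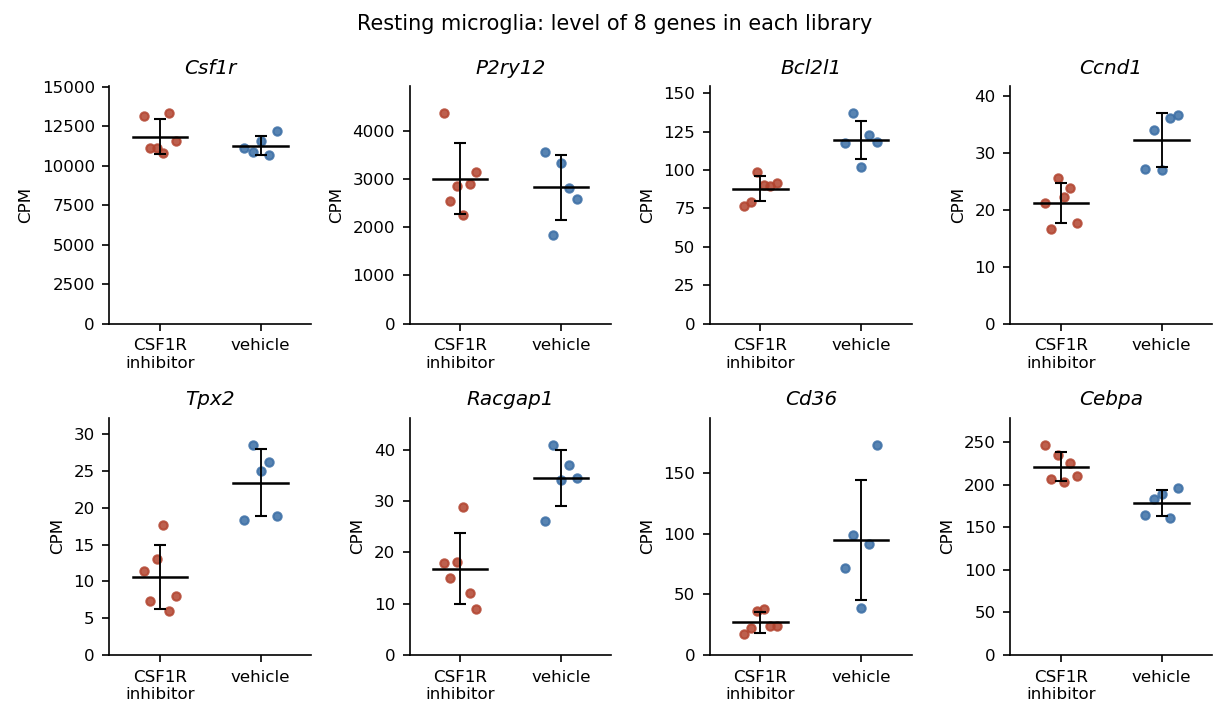
Level of 8 genes, in CPM on linear axes that start at 0, in each resting microglia library. Points are libraries (6 with the CSF1R inhibitor at the left of each panel, 5 with vehicle at the right), horizontal lines are means and bars are SDs; Csf1r and P2ry12 overlap between groups, while Bcl2l1, Ccnd1, Tpx2 and Cd36 lie lower in all 6 inhibitor libraries and Cebpa higher in all 6.

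The receptor that the drug blocks was itself expressed at the same order in both groups. Csf1r had 10825 CPM in the lowest, 11367 CPM in the median and 13335 CPM in the highest inhibitor library, against 11126, 10854, 11554, 10701 and 12187 CPM in vehicle replicates 1 to 5. The ranges overlapped over most of their length. Its log2 fold change was 0.07 ± 0.11 (SE), with a 95% interval from -0.15 to 0.30 and an edgeR adjusted p of 0.994. Csf1, a ligand that microglia also make, averaged 162.7 ± 61.0 CPM with the inhibitor and 157.2 ± 55.5 CPM with vehicle. Il34, the ligand made mainly by neurons, did not pass the filter on low counts, with 29 counts over all inhibitor libraries and 27 over all vehicle libraries.

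Of 22 genes of CSF1 receptor signalling, 20 were tested, 11 of them below 0, with a median of -0.04, or -0.01 without vehicle replicate 2. The adaptor Tyrobp, which couples TREM2 and other receptors to SYK, averaged 857.9 ± 139 CPM against 959.1 ± 92.4 CPM, and Inpp5d, the phosphatase SHIP1 that opposes PI3 kinase, 1005 ± 61.7 CPM against 988.5 ± 64.2 CPM. At an unadjusted p under 0.05, 2 members were lower, 10% beside 3.53% of all genes, both chosen for naming after their values were seen. Spred1, an inhibitor of the RAS to ERK pathway, averaged 101.3 ± 7.80 CPM with the inhibitor and 123.1 ± 11.9 CPM with vehicle, a log2 fold change of -0.28 ± 0.09. Sh3bp2, an adaptor that links receptors to SYK and PLCG2, averaged 90.0 ± 5.94 CPM and 107.7 ± 20.7 CPM, but its highest value, 144.2 CPM, was in vehicle replicate 2, and its log2 fold change was -0.13 without that library against -0.26 with it.

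Among the survival genes of the BCL2 family, Bcl2l1 stood lower in every inhibitor library. Bcl2l1 encodes BCL-XL, which holds the pore-forming proteins BAX and BAK in check; it lies at chr2:152780668-152831728 of GRCm38, on the minus strand. It had 76.9 CPM in the lowest, 90.1 CPM in the median and 98.6 CPM in the highest inhibitor library, against 117.6, 137.0, 101.8, 123.0 and 118.3 CPM in vehicle replicates 1 to 5. The highest inhibitor library was thus just under vehicle replicate 3, the lowest of its group. Its log2 fold change was -0.45 ± 0.09, with a 95% interval from -0.65 to -0.25, and -0.46 without inhibitor replicate 4 and -0.39 without vehicle replicate 2. DESeq2 gave an adjusted p of 0.0412.

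The family as a whole did not lean one way. Of its 22 genes, 20 were tested, 11 lay below 0 and 9 above, and the median was -0.00, or -0.07 without inhibitor replicate 4 and 0.05 without vehicle replicate 2. Bcl2, another anti-apoptotic member that was chosen after its values were seen, averaged 10.8 ± 1.06 CPM with the inhibitor and 16.1 ± 4.23 CPM with vehicle, a log2 fold change of -0.57 ± 0.17. Vehicle replicates 4 and 5, at 11.2 and 11.9 CPM, lay within the inhibitor range or next to it, which ended at 11.8 CPM. Bmf, a BH3-only protein that promotes apoptosis, was chosen in the same way and averaged 91.5 ± 8.98 CPM against 74.9 ± 7.51 CPM, a log2 fold change of 0.29 ± 0.10. Inhibitor replicate 4, at 74.9 CPM, was the only inhibitor library below the vehicle maximum of 82.8 CPM. The anti-apoptotic members with the highest CPM were spread widely, with Mcl1 at 833.8 ± 243 CPM and 751.6 ± 173 CPM, and Bcl2a1b at 208.4 ± 55.2 CPM and 214.7 ± 57.1 CPM, a gene with near-identical copies among which reads may be split. Bax averaged 63.7 ± 7.69 CPM with the inhibitor and 65.6 ± 9.40 CPM with vehicle, and Bcl2l11, the BH3-only protein BIM, 53.5 ± 11.9 CPM and 45.8 ± 16.9 CPM. Of 20 p53 targets and apoptosis genes, 14 lay above 0 with a median of 0.08. The only one with an unadjusted p under 0.05 was Sesn1, a stress-induced regulator of growth signalling, at 191.1 ± 23.6 CPM and 153.2 ± 23.5 CPM. It was 1 of 20 higher at that p, beside 1.95% of all genes.

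Genes of cell division lay lower in inhibitor libraries as a group, and most of the difference was in S phase and mitosis. Proliferation genes run in a sequence in which D cyclins with CDK4 and CDK6 release E2F factors, E2F factors induce the DNA replication genes, and the mitotic genes follow later through the MuvB complex, which binds CHR elements. The account below follows that order.

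Ccnd1, which encodes cyclin D1 and lies at chr7:144929931-144939925 of GRCm38, had 16.6 CPM in the lowest, 21.7 CPM in the median and 25.6 CPM in the highest inhibitor library, against 27.2, 34.1, 27.1, 36.2 and 36.7 CPM in vehicle replicates 1 to 5. All 6 inhibitor libraries lay below all 5 vehicle libraries. The log2 fold change was -0.60 ± 0.14 with a 95% interval from -0.89 to -0.31. The intervals of the other D cyclins held 0: Ccnd2 averaged 13.5 ± 5.83 CPM against 13.6 ± 4.27 CPM with a 95% interval from -0.62 to 0.59 on the log2 scale, and Ccnd3 60.8 ± 7.29 CPM against 63.1 ± 12.5 CPM with an interval from -0.34 to 0.23. Of 23 tested G1 cyclins and CDK inhibitors, 19 lay below 0, with a median of -0.19, 4 lower and 1 higher at an unadjusted p under 0.05. The lower ones made up 17.4%, beside 3.53% of all genes lower and 1.95% higher. Without vehicle replicate 2, 16 lay below 0 with a median of -0.11, and without vehicle replicate 3 the median was -0.10. Ccnd1, 1 of the 4 lower ones, had been picked with results of these libraries in view and adds no support. The other lower ones were Rbl1, E2f1 and Ccne2, chosen after their values were seen. Rbl1, the pocket protein p107 and itself a target of E2F, averaged 23.6 ± 2.05 CPM with the inhibitor and 30.9 ± 2.56 CPM with vehicle, and its groups did not overlap. With Ccnd1 this made 2 of 23 without overlap, beside 0.286% of all genes. E2f1 averaged 14.3 ± 1.75 CPM against 19.3 ± 5.11 CPM, and Ccne2, cyclin E2, 3.4 ± 2.12 CPM against 6.42 ± 1.29 CPM. The higher one was Cdkn1b, the CDK inhibitor p27, at 19.2 ± 3.31 CPM against 15 ± 2.73 CPM, a log2 fold change of 0.36 ± 0.16.

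All 34 S phase genes were tested and all 34 lay below 0, with a median of -0.59. At an unadjusted p under 0.05, 17 of them were lower, 50% against 3.53% of all genes, and none was higher. No S phase gene separated the groups completely. Rrm1, the large subunit of ribonucleotide reductase, which makes deoxynucleotides, averaged 35.4 ± 4.69 CPM with the inhibitor and 53.3 ± 12 CPM with vehicle. Its log2 fold change was -0.59 ± 0.14, and only vehicle replicate 3, at 38.4 CPM, lay within the inhibitor range. Rrm2, the regulated small subunit, averaged 7.94 ± 5.03 CPM and 18.9 ± 3.4 CPM, a log2 fold change of -1.25 ± 0.33; inhibitor replicate 4, at 17.2 CPM, was the only inhibitor library inside the vehicle range. Tyms, thymidylate synthase, averaged 14.3 ± 4.26 CPM against 21.3 ± 2.54 CPM, and the replicative helicase subunits Mcm5 and Mcm2 averaged 23.3 ± 7.09 CPM against 36.1 ± 10.1 CPM and 19.5 ± 7.60 CPM against 30.5 ± 5.68 CPM. The S phase genes with the highest CPM showed small differences: Slbp, which binds histone mRNA, had a log2 fold change of -0.08 ± 0.13, and Pcna, the DNA polymerase clamp, of -0.18 ± 0.18. Rrm1, Rrm2, Tyms, Mcm5 and Mcm2 were chosen after their values were seen.

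All 50 mitosis genes were tested and all 50 lay below 0, with a median of -0.77. At an unadjusted p under 0.05, 24 were lower, 48% against 3.53% of all genes, and none was higher. In 3 of them, Tpx2, Bub1 and Mad2l1, the groups did not overlap, 3 of 50 beside 0.286% of all genes. Tpx2, counted in the 24 and in the 3, had been picked with results of these libraries in view and adds no support. Levels were low throughout, and Mki67, the member with the highest CPM, averaged 42.5 ± 26.2 CPM with the inhibitor and 68.1 ± 18.9 CPM with vehicle. As bulk libraries, these data cannot tell fewer dividing cells from less of each transcript per cell.

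Tpx2 encodes a spindle assembly factor that activates Aurora A kinase, and lies at chr2:152847964-152895321 of GRCm38 on the plus strand. It had 5.99 CPM in the lowest, 9.72 CPM in the median and 17.7 CPM in the highest inhibitor library, against 18.4, 28.6, 25.0, 26.2 and 18.9 CPM in vehicle replicates 1 to 5. The highest inhibitor library was replicate 4, and it lay just under vehicle replicate 1. The log2 fold change was -1.14 ± 0.25, with a 95% interval from -1.67 to -0.62. Tpx2 is the genomic neighbour of Bcl2l1: 16235 bases and no other gene of the count table lie between them, and they are transcribed away from each other.

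The next mitosis genes were chosen after their values were seen. Racgap1, which organises the central spindle and cytokinesis, averaged 16.8 ± 6.88 CPM with the inhibitor and 34.5 ± 5.47 CPM with vehicle, a log2 fold change of -1.03 ± 0.24. Only inhibitor replicate 4, at 28.9 CPM, exceeded the lowest vehicle library, at 26.0 CPM. Bub1, a kinase of the spindle checkpoint, averaged 6.47 ± 3.48 CPM against 18.0 ± 4.93 CPM, a log2 fold change of -1.47 ± 0.36, and inhibitor replicate 4 was again highest of its group, at 11.5 CPM, under the lowest vehicle library at 11.9 CPM. Mad2l1, another checkpoint protein, averaged 7.38 ± 2.33 CPM against 12.4 ± 1.91 CPM. Cdk1, the kinase that drives entry into mitosis, averaged 17.0 ± 6.63 CPM against 29.1 ± 3.47 CPM, a log2 fold change of -0.77 ± 0.21.

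Promoters of the mitosis and S phase genes are described here as background on what the lists hold. RefSeq promoters of GRCm38.p6, from 250 bases before to 50 bases after the start, were found for 44 of the 50 mitosis genes, in 47 promoters. The letters TTTGAA, the core of the CHR element, stood on either strand in 78.7% of these 47, against 17.9% of all 32851 promoters in the table. The CCAAT box, the site of the factor NF-Y, stood in 68.1% of the mitosis promoters and 60% of the S phase promoters, against 37.4% of all. For 28 of the 34 S phase genes, with 35 promoters, TTTGAA stood in 14.3%, and TTCCCGC, a form of the E2F site, in 40% against 4.6% of all promoters and 2.13% of the mitosis promoters. These matches describe letters in a window and show no binding. They follow from which genes the lists hold, were not compared with inhibitor values, and say nothing about the inhibitor. The promoters of 3 mitosis genes and 1 S phase gene are shown because they carry different combinations. Capitals mark TTTGAA and CCAAT on either strand.
Racgap1, chr15:99651607-99651906, minus strand, with 1 CCAAT box and 1 CHR core: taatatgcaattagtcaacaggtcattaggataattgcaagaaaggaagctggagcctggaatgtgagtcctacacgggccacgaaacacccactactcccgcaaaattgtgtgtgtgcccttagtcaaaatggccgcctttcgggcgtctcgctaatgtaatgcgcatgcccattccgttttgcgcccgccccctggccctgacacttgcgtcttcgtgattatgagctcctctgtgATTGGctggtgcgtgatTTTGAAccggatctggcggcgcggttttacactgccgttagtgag
Cdk1, chr10:69352863-69353162, minus strand, with 3 CCAAT boxes and 2 CHR cores: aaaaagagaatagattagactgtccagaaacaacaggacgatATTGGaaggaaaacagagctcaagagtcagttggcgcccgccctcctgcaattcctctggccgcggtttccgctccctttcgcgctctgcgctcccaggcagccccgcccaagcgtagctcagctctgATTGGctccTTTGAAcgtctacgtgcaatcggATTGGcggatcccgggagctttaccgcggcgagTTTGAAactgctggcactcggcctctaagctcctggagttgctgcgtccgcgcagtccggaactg
Bub1, chr2:127831810-127832109, minus strand, with 2 CCAAT boxes and 0 CHR cores: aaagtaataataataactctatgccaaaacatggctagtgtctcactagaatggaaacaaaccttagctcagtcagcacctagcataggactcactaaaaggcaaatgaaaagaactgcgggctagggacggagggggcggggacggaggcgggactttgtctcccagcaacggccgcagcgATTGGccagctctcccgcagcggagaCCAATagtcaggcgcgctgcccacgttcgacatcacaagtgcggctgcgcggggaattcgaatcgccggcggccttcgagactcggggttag
Rrm2, chr12:24708004-24708303, plus strand, with 1 CCAAT box and 0 CHR cores: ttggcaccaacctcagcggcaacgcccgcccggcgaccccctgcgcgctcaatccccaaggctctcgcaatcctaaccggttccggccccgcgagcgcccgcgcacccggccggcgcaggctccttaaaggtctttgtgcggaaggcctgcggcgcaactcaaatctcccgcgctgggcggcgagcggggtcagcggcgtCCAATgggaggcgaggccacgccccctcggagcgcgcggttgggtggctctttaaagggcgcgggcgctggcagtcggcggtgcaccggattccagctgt

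The summed level of the mitosis genes showed which libraries carried the difference. It was 587.2, 482.1, 671.2, 1169, 280.4 and 427.4 CPM in inhibitor replicates 1 to 6, against 956.3, 1222, 1047, 1174 and 771.3 CPM in vehicle replicates 1 to 5. Of the 6 inhibitor libraries, 5 lay below every vehicle library, and replicate 4 lay among the vehicle libraries. The S phase sum was 439.4 to 778.6 CPM with the inhibitor, again with replicate 4 highest, and 647.6 to 969.5 CPM with vehicle, with replicate 2 highest. Each library was left out in turn, and the fit without inhibitor replicate 4 is given because of its mitosis level. Leaving it out favours lower division genes, so the calls of that fit describe this library and add no support. Without inhibitor replicate 4, edgeR called 7 of 12140 genes, 0.0577%, all lower with the inhibitor: Kif4, Rrm2, Kif22, Racgap1, Cdk1, Tacc3 and Tpx2. Of these, 6 were mitosis genes and Rrm2 was the S phase gene, and adjusted p ran from 0.0293 to 0.0362. In that fit 47 of the 50 mitosis genes and 23 of the 34 S phase genes were lower at an unadjusted p under 0.05, beside 4.74% of all genes, with medians of -1.14 and -0.72. Kif4, a chromosome-bound kinesin, moved furthest with this library: its log2 fold change was -2.0 without it and -1.21 with it, since inhibitor replicate 4 had 15.6 CPM and the other inhibitor libraries 1.51 to 4.10 CPM. Without vehicle replicate 2, 14 mitosis genes and 8 S phase genes were lower at an unadjusted p under 0.05, with medians of -0.68 and -0.46, and 0 genes were called. Over all genes of that fit, 301 of 12376 were lower at that p. Without inhibitor replicates 1, 2 or 6, 11, 11 and 10 S phase genes were lower at that p. The counts over all genes were 454 of 12124, 320 of 12129 and 317 of 12153.

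**Figure D3:**
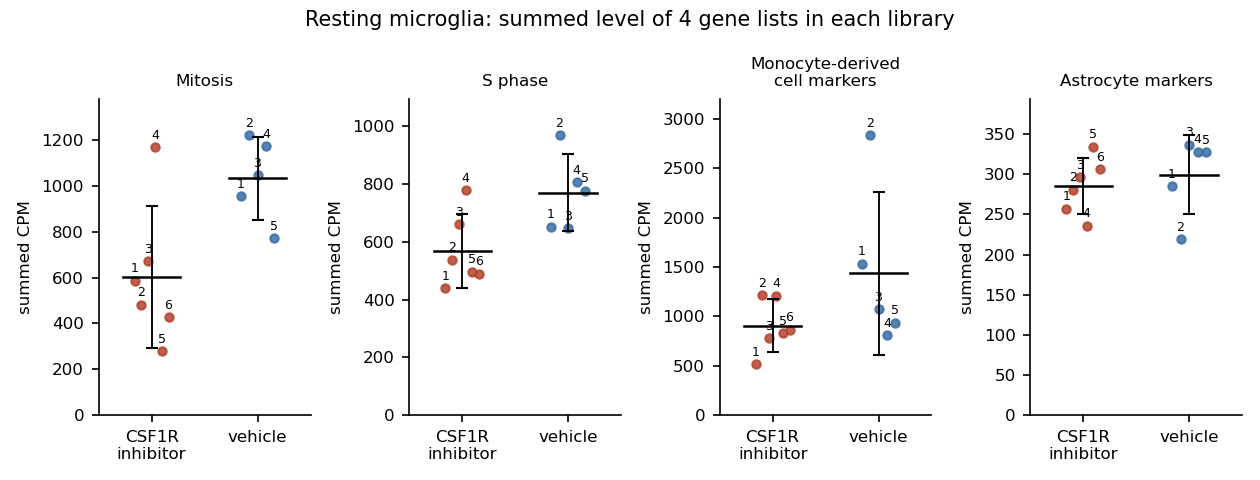
Summed level, in CPM of all counts on linear axes that start at 0, of 4 gene lists in each resting microglia library, with inhibitor libraries at the left of each panel and vehicle libraries at the right. Points are libraries, the number at a point is its replicate, lines are means and bars SDs; inhibitor replicate 4 lies among the vehicle libraries for mitosis (1169 CPM), and vehicle replicate 2 is highest for monocyte-derived cell markers (2837 CPM).

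Cd36 showed the largest difference of the 4 genes given with the comparison. CD36 is a scavenger receptor that takes up oxidised lipoproteins and long-chain fatty acids, and its gene lies at chr5:17781690-17888801 of GRCm38. It had 17.0 CPM in the lowest, 23.9 CPM in the median and 38.0 CPM in the highest inhibitor library, against 72.0, 98.7, 39.2, 91.7 and 173.5 CPM in vehicle replicates 1 to 5. The highest inhibitor library was just under vehicle replicate 3, and the other vehicle libraries lay well above. The log2 fold change was -1.81 ± 0.34, with a 95% interval from -2.57 to -1.06, and it was -1.94 without inhibitor replicate 4 and -1.80 without vehicle replicate 2. DESeq2 gave an adjusted p of 0.00617, the smallest of its 16 calls.

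Other genes of lipid handling were spread more widely. Of 27 scavenger receptor and lipid uptake genes, 24 were tested, 18 lay below 0 with a median of -0.15, and 3 were lower at an unadjusted p under 0.05, or 12.5% beside 3.53% of all genes. Without vehicle replicate 2, 14 lay below 0 with a median of -0.08, and without inhibitor replicate 4 the median was -0.23. Cd36, 1 of the 3 lower ones, had been picked with results of these libraries in view and adds no support. The other lower ones were Msr1 and Lpl, chosen after their values were seen. Msr1, scavenger receptor A, averaged 6.82 ± 3.25 CPM with the inhibitor and 20.9 ± 17.1 CPM with vehicle, and its log2 fold change of -1.62 was -0.99 without vehicle replicate 2. Lpl, lipoprotein lipase, averaged 23.8 ± 7.16 CPM and 45.4 ± 31.5 CPM, and its log2 fold change of -0.93 was -0.41 without that library. The receptor Lrp1, which takes up apolipoprotein E, averaged 940.2 ± 102 CPM against 1113 ± 211 CPM, with a 95% interval from -0.51 to 0.03 on the log2 scale. Of 16 LXR targets and efflux genes, 11 lay below 0 with a median of -0.20, or -0.12 without vehicle replicate 2. At an unadjusted p under 0.05, 3 were lower, or 18.8% beside 3.53% of all genes. At that p 1 was higher, Arl4c, with a log2 fold change of 0.25 ± 0.11, beside 1.95% of all genes. Scd2, a fatty acid desaturase, averaged 78.8 ± 10.9 CPM with the inhibitor and 111.6 ± 25.1 CPM with vehicle without overlap, a log2 fold change of -0.50 ± 0.14. It was 1 of 16 without overlap, beside 0.286% of all genes. Its vehicle replicate 3 had 155.4 CPM and the other vehicle libraries 93.4 to 106.1 CPM. Scd1 averaged 0.901 ± 0.551 CPM against 3.0 ± 2.10 CPM, and Apoc1, an apolipoprotein, 1.53 ± 0.916 CPM against 5.88 ± 6.09 CPM, while the cholesterol exporter Abca1 was 465.3 ± 56.9 CPM against 470.9 ± 90.8 CPM. Apoe, the lipid carrier with the highest CPM of this list, varied widely between libraries. It had 473.7 CPM in the lowest, 2630 CPM in the median and 4228 CPM in the highest inhibitor library, against 1882, 9758, 966.3, 2143 and 13541 CPM in vehicle replicates 1 to 5. None of the 22 cholesterol synthesis genes had an unadjusted p under 0.05, and 18 lay below 0 with a median of -0.16, or -0.10 without inhibitor replicate 4.

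The homeostatic and the disease-associated programmes of microglia were described by 22 and 25 tested genes. Of the homeostatic genes 17 lay above 0, the median was 0.09, and none had an unadjusted p under 0.05. Without vehicle replicate 2 the median was 0.02 and 8 lay below 0, against 5 with all libraries, and without inhibitor replicate 4 the median was 0.14. Their member with the highest CPM, Cst3, the protease inhibitor cystatin C, averaged 14234 ± 3576 CPM with the inhibitor and 12531 ± 2889 CPM with vehicle. Of the disease-associated genes, which microglia induce around damage, 19 lay below 0 with a median of -0.24, and 5 were lower at an unadjusted p under 0.05, or 20% beside 3.53% of all genes. These were Cd52, Gpnmb, Spp1, Lpl and Lgals3, named after their values were seen. Gpnmb, a transmembrane glycoprotein of lipid-laden macrophages, had 2.84 CPM in the lowest, 19.0 CPM in the median and 33.1 CPM in the highest inhibitor library, against 31.9, 185.6, 67.8, 27.6 and 103.9 CPM in vehicle replicates 1 to 5. Only 2 inhibitor libraries exceeded the lowest vehicle library, and the log2 fold change was -2.15 ± 0.68. Spp1, osteopontin, averaged 53.8 ± 22.1 CPM against 125.6 ± 82.9 CPM, and Lgals3, galectin 3, 22.0 ± 14.1 CPM against 49.8 ± 32.2 CPM. Cd52, a small surface glycoprotein, averaged 146.8 ± 32.6 CPM against 208.9 ± 46.6 CPM. Vehicle replicate 2 was the highest library for Gpnmb, Spp1 and Lgals3. Without it, 2 members of the list were lower at an unadjusted p under 0.05, beside 301 of 12376 genes, and the median was -0.10. The log2 fold changes were then -1.62 for Gpnmb, -0.75 for Spp1 and -0.69 for Lgals3. The lysosomal proteases that head the list by level did not differ by more than their spread, with Ctsd at 18977 ± 3261 CPM and 19340 ± 3208 CPM.

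Markers of monocyte-derived cells lay below 0 as well. Of 15, 14 were tested, all 14 lay below 0 with a median of -0.66, and 6 were lower at an unadjusted p under 0.05, or 42.9% beside 3.53% of all genes. Their sum ran from 518.0 to 1214 CPM with the inhibitor (median 849.0 CPM) and from 810.5 to 2837 CPM with vehicle (median 1074 CPM), and most of it was Lyz2, which microglia also express. Without Lyz2 it was 108.3, 164.3, 170.5, 181.0, 134.5 and 155.5 CPM in inhibitor replicates 1 to 6, against 269.1, 330.2, 176.5, 219.9 and 225.1 CPM in vehicle replicates 1 to 5. Only inhibitor replicate 4 exceeded the lowest vehicle library. Vim, the intermediate filament vimentin, averaged 17.4 ± 5.77 CPM against 35.0 ± 12.3 CPM, a log2 fold change of -1.01 ± 0.24, and was called by DESeq2. Ly6c2, the surface antigen of inflammatory monocytes, averaged 2.68 ± 1.51 CPM against 8.57 ± 5.27 CPM, and Chil3, a chitinase-like protein, 2.74 ± 1.48 CPM against 14.1 ± 15.6 CPM without overlap. Chil3 was 1 of 14 without overlap, beside 0.286% of all genes. Vehicle replicate 2 was far highest for Ly6c2 and Chil3. The log2 fold changes were -1.68 for Ly6c2 and -2.38 for Chil3 with it and -1.22 and -1.39 without it. Without vehicle replicate 2 the median of the list was -0.65, and 13 of 14 lay below 0. In that fit 5 members were lower at that p, beside 301 of 12376 genes. Without inhibitor replicate 4 the median was -0.91. The part of monocyte-derived cells in the values of Cd36, Msr1, Gpnmb, Spp1, Lgals3 and the division genes was not tested. The microglia marker sum of vehicle replicate 2, 31841 CPM, was the lowest of the 11 libraries.

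Markers of other brain cells were low and some were lower with the inhibitor. Of 9 astrocyte markers, 8 lay below 0 with a median of -0.41, and 4 were lower at an unadjusted p under 0.05, or 44.4% beside 3.53% of all genes. Without vehicle replicate 2 the median was -0.70. Gfap, the astrocyte filament, averaged 4.56 ± 2.54 CPM against 13.6 ± 10.1 CPM, and Aldoc 6.90 ± 2.98 CPM against 19.1 ± 13.2 CPM. The astrocyte sum, 236.0 to 334.4 CPM and 219.5 to 337.0 CPM, was mostly Slc1a3, and without that gene it was 21.9 to 42.4 CPM with the inhibitor and 27.5 to 112.5 CPM with vehicle. Neuron markers summed to 4.47 to 9.0 CPM with the inhibitor and 8.53 to 35.3 CPM with vehicle. Of 10, 5 were tested and all 5 lay below 0. At an unadjusted p under 0.05, 1 was lower, or 20% beside 3.53% of all genes. Of 10 tested oligodendrocyte markers, 9 lay below 0 with a median of -0.43, and their sum was 258.5 to 412.4 CPM against 215.6 to 951.6 CPM. At that p, 1 of them was lower, or 10% beside 3.53% of all genes. Vehicle replicate 3 was the highest vehicle library for the astrocyte sum without Slc1a3, the neuron sum and the oligodendrocyte sum. The next vehicle library, replicate 4 each time, had 68.0, 20.4 and 405.1 CPM. Border-associated macrophage markers had 10 of 12 below 0 and summed to 226.3 to 578.1 CPM against 235.8 to 679.1 CPM. Their median was -0.58, and without vehicle replicate 2 it was -0.12 with 7 of 12 below 0. Neutrophil markers other than Csf3r, which was high in every library, summed to 5.66 to 79.9 CPM against 2.19 to 185.9 CPM. Of 8 tested neutrophil markers, 1 was lower at that p, or 12.5% beside 3.53% of all genes. T cell, NK cell, B cell, dendritic, endothelial, mural and fibroblast, and erythroid markers had 0 members lower at an unadjusted p under 0.05, and 1, the B cell marker Cd79b, higher. It was 1 of 2 tested B cell markers, and 1.95% of all genes were higher at that p. The B cell factor Pax5 had no count in any of the 11 libraries. The part of these cells in the results was not tested.

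Most transcription factors and receptors of the myeloid lineage were close between groups. Of 19 tested myeloid transcription factors, 13 lay above 0 with a median of 0.06, or 0.10 without vehicle replicate 2. Cebpa, which directs myeloid differentiation, was chosen after its values were seen; it had 203.0 CPM in the lowest, 218.1 CPM in the median and 246.9 CPM in the highest inhibitor library, against 164.9, 183.2, 188.6, 161.1 and 196.2 CPM in vehicle replicates 1 to 5. All inhibitor libraries lay above all vehicle libraries, 1 of 19 beside 0.204% of all genes. The log2 fold change was 0.31 ± 0.09, with a 95% interval from 0.12 to 0.49 and an edgeR adjusted p of 0.664. Spi1, which encodes PU.1, averaged 218.7 ± 49.4 CPM with the inhibitor and 206.6 ± 22.7 CPM with vehicle, and Irf8 744.0 ± 68.6 CPM and 730.8 ± 65.8 CPM. Of 17 other growth factor receptors, 9 lay above 0, and Il10ra, the interleukin 10 receptor, had the only unadjusted p under 0.05, at 1327 ± 123 CPM and 1137 ± 129 CPM. Of 20 TGF-beta signalling genes, 10 lay below 0 and 10 above. At an unadjusted p under 0.05, 1 was higher, Smurf1, with a log2 fold change of 0.23 ± 0.09, named after its values were seen. Higher at that p were thus 1 of 19 transcription factors, 1 of 17 receptors and 1 of 20 TGF-beta genes, beside 1.95% of all genes.

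Immediate early genes, which cells induce within minutes of a stimulus or of tissue handling, leaned the other way. Of 26 tested, 24 lay above 0 with a median of 0.30, and 3 were higher at an unadjusted p under 0.05, or 11.5% against 1.95% of all genes. Fos averaged 5994 ± 1690 CPM with the inhibitor and 4302 ± 994 CPM with vehicle, a log2 fold change of 0.48 ± 0.20. Dusp1, a phosphatase of the MAP kinases, averaged 2471 ± 749 CPM and 1681 ± 454 CPM, and Jund 400.7 ± 43.6 CPM and 327.4 ± 60.6 CPM; both were named after their values were seen. The groups overlapped for all 3, and Jun and Egr1 had 95% intervals that held 0, from -0.17 to 0.61 and from -0.25 to 0.84. The time between death and sorting is not in the labels, so its part was not tested.

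Lists of immune effector genes had medians from -0.19 to -0.03. Of 28 type I interferon response genes, 21 lay below 0 with a median of -0.18 and none had an unadjusted p under 0.05. MHC class II genes lay below 0 in 13 of 14 cases with a median of -0.19, or -0.09 without vehicle replicate 2 and -0.32 without inhibitor replicate 4. At an unadjusted p under 0.05, 1 was lower, H2-DMb2, or 7.14% beside 3.53% of all genes. It was highest in vehicle replicate 5, which had 141.2 CPM while the other vehicle libraries had 41.6 to 66.3 CPM. Cd74, the invariant chain, averaged 12482 ± 3872 CPM and 12930 ± 5958 CPM. Of 26 inflammatory mediators, 14 lay below 0, and 3 were lower at that p, or 11.5% beside 3.53% of all genes. Without vehicle replicate 2, 0 members were lower at that p, beside 301 of 12376 genes. Without inhibitor replicate 4 it was 3, beside 4.74% of all genes. Among the 3 with all libraries was the interferon-gamma induced chemokine Cxcl9, at 55.6 ± 27.8 CPM against 104.0 ± 39.2 CPM. The median of that list was -0.03 with all libraries, 0.23 without vehicle replicate 2 and -0.27 without inhibitor replicate 4. Complement and Fc receptor genes had a median of -0.07, or -0.02 without vehicle replicate 2, and none at an unadjusted p under 0.05, and C1qb, a subunit of the C1q that tags synapses, averaged 5922 ± 508 CPM and 6090 ± 757 CPM, with a 95% interval from -0.28 to 0.20 on the log2 scale. Phagocytosis receptor genes had a median of -0.09 and MHC class I genes of -0.10, which without vehicle replicate 2 were -0.06 and -0.06. Neither list had a member lower at that p and each had 1 higher, Cd300a and H2-Q6, named after their values were seen, with log2 fold changes of 0.27 ± 0.12 and 0.39 ± 0.15. The lists had 20 and 16 tested members, and 1.95% of all genes were higher at that p.

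Energy and lysosomal genes differed little in size. In the respiratory chain, 22 of 26 genes lay below 0 with a median of -0.13, and 5 small subunits were lower at an unadjusted p under 0.05, or 19.2% against 3.53% of all genes. Cox6c, a subunit of cytochrome oxidase, averaged 44.9 ± 5.20 CPM with the inhibitor and 56.6 ± 6.49 CPM with vehicle, and Ndufa1, of complex I, 30.1 ± 7.42 CPM and 40.7 ± 4.37 CPM. The ATP synthase subunit Atp5b averaged 430.0 ± 43.5 CPM and 461.0 ± 74.8 CPM. Among 19 glycolysis genes, 13 lay below 0 with a median of -0.10, while without vehicle replicate 2 only 8 lay below 0 and the median was 0.01; without inhibitor replicate 4 it was -0.17. Pkm, the last enzyme of the pathway, averaged 425.4 ± 77.5 CPM and 544.4 ± 142 CPM, with a log2 fold change of -0.36 that was -0.19 without vehicle replicate 2. Of 32 lysosome genes, 24 lay below 0 with a median of -0.06, or -0.03 with 19 below 0 without vehicle replicate 2. At an unadjusted p under 0.05, 2 were lower, or 6.25% beside 3.53% of all genes, and 1 without vehicle replicate 2. Gusb, the hydrolase beta-glucuronidase, was named after its values were seen and separated the groups, 1 of 32 beside 0.286% of all genes. It averaged 432.6 ± 37.5 CPM against 545.6 ± 39.0 CPM, a log2 fold change of -0.33 ± 0.09.

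**Figure D4:**
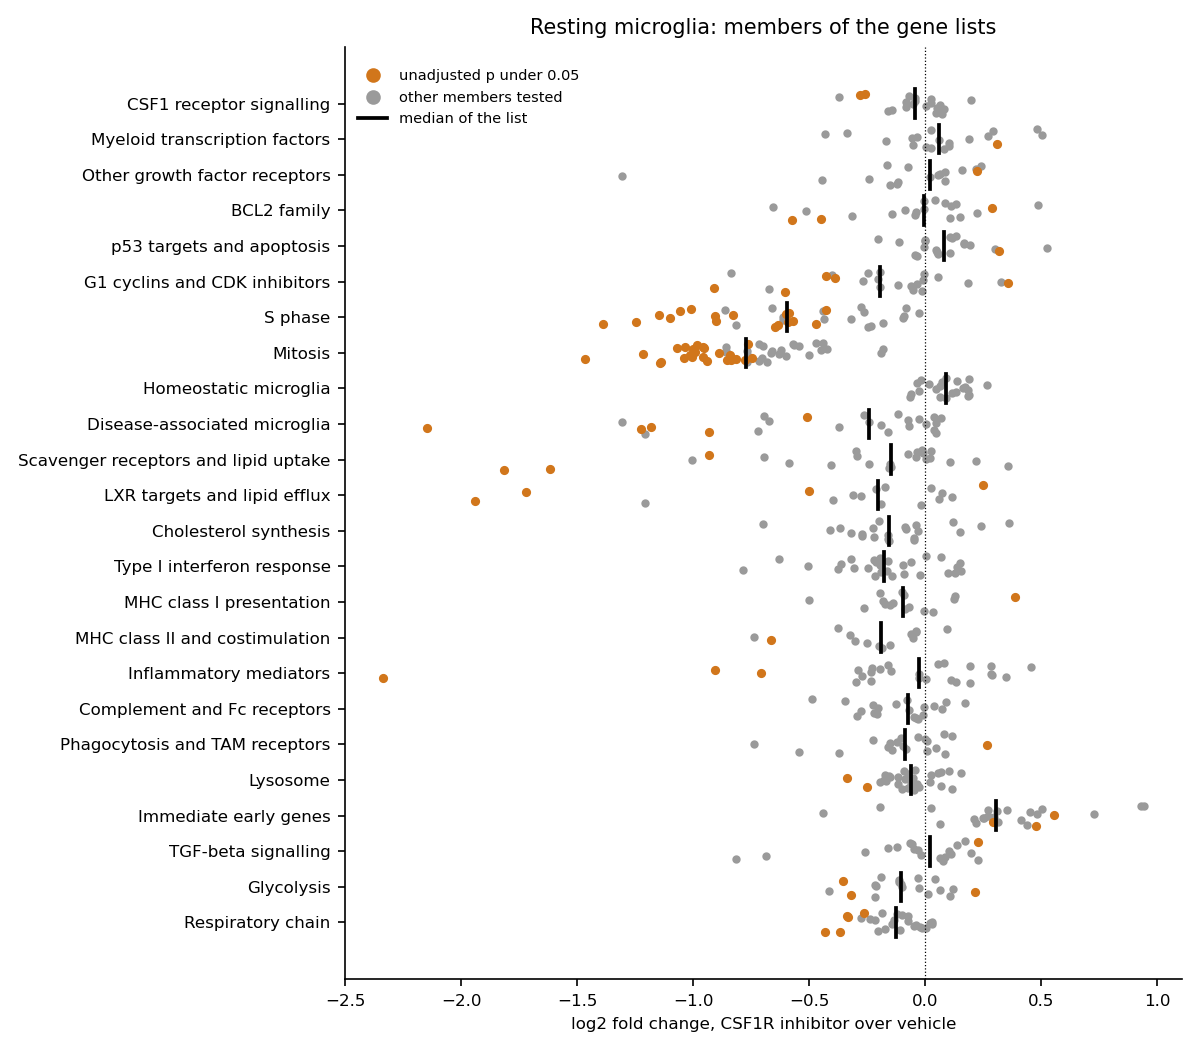
Log2 fold change of the CSF1R inhibitor over vehicle (x axis) for the tested members of 24 gene lists (rows) in resting microglia. Points are genes, orange where the unadjusted edgeR p was under 0.05, and black bars are list medians; the bars lie at -0.77 for mitosis, -0.59 for S phase and 0.30 for immediate early genes, and between -0.24 and 0.09 for the other lists.

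The genes with the smallest p in each direction were named after their values were seen. Among lower genes the first was Sh3bgrl, which encodes a small SH3-binding protein. It had 10.4 CPM in the lowest, 13.9 CPM in the median and 19.5 CPM in the highest inhibitor library, against 28.9, 35.2, 20.5, 29.4 and 18.7 CPM in vehicle replicates 1 to 5, a log2 fold change of -0.94 ± 0.19. Its groups overlapped in 2 libraries, inhibitor replicate 2 and vehicle replicate 5. Cks1b, a cofactor of cyclin-dependent kinases, averaged 10.3 ± 2.46 CPM with the inhibitor and 18.1 ± 3.55 CPM with vehicle, and Asf1b, a histone chaperone of replicating cells, 6.79 ± 2.43 CPM and 14.8 ± 4.56 CPM without overlap. Mdfic, a regulator of transcription factors of the MyoD family, averaged 7.40 ± 1.58 CPM and 14.1 ± 4.02 CPM, and Flna, the actin crosslinker filamin A, 135.1 ± 19.8 CPM and 189.3 ± 26.7 CPM, both without overlap. Other genes called by DESeq2, Fanci, Exo1 and Zgrf1, had log2 fold changes of -1.55, -1.41 and -1.02; FANCI and EXO1 act in DNA repair. Apoc2, a cofactor of lipoprotein lipase, had a log2 fold change of -2.05 in edgeR.

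Among higher genes the first was Cnnm3, a member of a family of magnesium transport proteins. It had 75.9 CPM in the lowest, 81.3 CPM in the median and 87.9 CPM in the highest inhibitor library, against 65.2, 61.8, 70.4, 62.8 and 65.0 CPM in vehicle replicates 1 to 5. The groups did not overlap and the spread within each was small, so a log2 fold change of 0.33 ± 0.08 gave an unadjusted p of 0.000626. Mras, a RAS-family GTPase, averaged 30.6 ± 3.64 CPM with the inhibitor and 22.7 ± 1.81 CPM with vehicle, and Zfp691, a zinc finger protein, 59.8 ± 3.18 CPM and 46.8 ± 5.58 CPM. Both separated the groups, and the largest of these 3 log2 fold changes was 0.43.

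Whether the inhibitor acted differently on resting microglia was tested as an interaction against each other population. These comparisons share the resting libraries, so they are not independent. Against activated microglia, edgeR called 0 of 13172 genes, with 774 at an unadjusted p under 0.05, or 5.88%, and DESeq2 called 82. Against blood-derived phagocytes it called 0 of 12921, with 891 at an unadjusted p under 0.05, or 6.90%, and DESeq2 called 14. Within activated microglia alone 0 of 11675 genes were called, 417 having an unadjusted p under 0.05, or 3.57%, and within blood-derived phagocytes 32 of 11670, or 0.274%. Activated microglia libraries differed most in detected genes, from 9742 to 14038.

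Of the 24 lists, mitosis had the largest median difference between the effects in resting and activated microglia. Their median log2 fold change was -0.77 in resting microglia with 50 of 50 below 0, 0.88 in activated microglia with 48 of 50 above 0, and -0.36 in blood-derived phagocytes with 42 of 50 below 0. Of all genes tested, 48.9% lay below 0 in activated microglia and 50.5% in blood-derived phagocytes. The difference of the effects, resting minus activated, was below 0 for all 50, with a median of -1.63, and 26 had an unadjusted p under 0.05 beside 5.88% of all genes, but edgeR called none and DESeq2 called 1, Birc5, which encodes the survivin subunit of the chromosomal passenger complex. For Tpx2 the log2 fold changes were -1.14 ± 0.25 in resting microglia, 1.14 ± 0.60 in activated microglia and -0.51 ± 0.39 in blood-derived phagocytes. The Tpx2 interaction against activated microglia was -2.27 ± 0.68 (SE), with an edgeR adjusted p of 0.612, and against blood-derived phagocytes -0.64 ± 0.50, with an adjusted p of 0.834. The S phase list showed the same order, with medians of -0.59, 0.58 and -0.12.

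The estimates for Bcl2l1 lay close together in the 3 populations. Its log2 fold change was -0.45 ± 0.09 in resting microglia, -0.48 ± 0.27 in activated microglia and -0.59 ± 0.10 in blood-derived phagocytes, where edgeR called it with an adjusted p of 0.0231. The interaction was 0.06 with a 95% interval from -0.54 to 0.65 against activated microglia, and 0.15 with an interval from -0.13 to 0.43 against blood-derived phagocytes. Cd36 was -1.81 ± 0.34 in resting microglia, -1.75 ± 1.40 in activated microglia and -0.42 ± 0.19 in blood-derived phagocytes, and the interaction against the last was -1.39 ± 0.40 with an adjusted p of 0.683. Ccnd1 was -0.60 ± 0.14, -0.66 ± 0.90 and -0.15 ± 0.17 in the same order, and its interaction against blood-derived phagocytes was -0.44 ± 0.23 with an adjusted p of 0.729. Lysosome genes had a median of -0.06 in resting microglia, -0.60 in activated microglia and -0.26 in blood-derived phagocytes. Against each of the others, 29 of 33 lysosome interactions lay above 0, and the share of all genes above 0 is not reported here. At an unadjusted p under 0.05, 7 and 5 were higher and 0 and 1 lower. The shares of all genes at that p, in either direction, were 5.88% and 6.90%. Of the lysosome interactions, 0 were called by edgeR or DESeq2. Immediate early genes had medians of 0.30, -0.18 and 0.36 in the 3 populations.

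**Figure D5:**
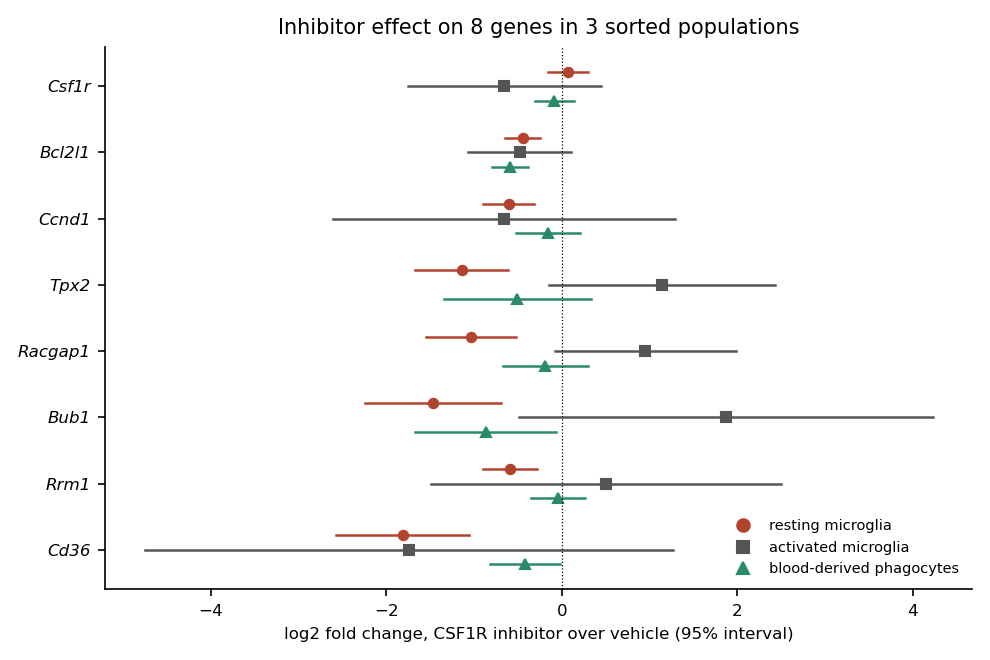
Log2 fold change of the CSF1R inhibitor over vehicle (x axis), with 95% intervals, for 8 genes in resting microglia, activated microglia and blood-derived phagocytes (6 inhibitor and 5 vehicle libraries each). Symbols are edgeR estimates; Tpx2, Racgap1, Bub1 and Rrm1 lie left of 0 in resting and right of 0 in activated microglia, and Bcl2l1 lies between -0.45 and -0.59 in all 3.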

How the data were processed

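RNA of flow-sorted cells was amplified with a low-input SMART-Seq kit, with more PCR cycles where input was very low, per the labels' protocols, and no cycle number is given per library. The submitters' processing notes name bcl2fastq and GRCm38, and the aligner and counter are not stated. The authors deposited expected counts for 21950 protein-coding genes, 16.3% of the values not whole, which were rounded here for the count models. They also deposited log2 FPKM for 27745 genes, with 1 added to the FPKM. Columns were matched by library name. Symbols and positions came from GENCODE M21.

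Counts of the 11 resting libraries, 11789803 to 21243113 in total, were tested in R 4.3.3 with edgeR 4.0.16 (filterByExpr, TMM scaling, robust quasi-likelihood F test, Benjamini-Hochberg over all genes tested). Levels are TMM-scaled CPM, and list sums are CPM of total counts. Intervals are 95%. Interactions used the 22 libraries of 2 populations. Alternatives were DESeq2 1.42.0, RLE size factors, no count filter, all 33 libraries in 1 fit, limma 3.58.1 with voom weights or on the log2 FPKM, detected genes as a covariate, a replicate block and each library left out. Sex as a covariate was added after the data were seen. The fitting code was tested on simulated data.

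The gene lists and the 4 given genes were chosen with earlier results of these data known. The naming rule took Csf1r, Ccr2, Ptprc, Itgam, the given genes, and called genes by p and by fold. Of each list without calls it took the 2 members with the highest mean CPM. All other named genes were chosen after their values were seen, also where the text does not say so at the gene. Among these are Scd2, Scd1, Apoc1, Vim, Ly6c2, Chil3, Gfap, Aldoc, Cxcl9, H2-DMb2, Cox6c and Ndufa1. Some genes that the rule names are not reported here.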

Additional observations from a re-analysis of the deposited data

Results flagged for a closer look

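In 116 genes, taken by the naming rule or chosen after their values were seen, the highest or lowest library of each group was tested. Dixon's criterion set it against the others in 232 groups, of which 22 were picked out. Chance alone picks out about 1 in 20 groups only where genes are chosen without regard to their values. Many of the 116 were chosen after their values were seen, and the genes of a library are not independent. Neither the 22 nor their split between libraries can therefore be set against that share. Inhibitor replicate 4 accounts for 9 and vehicle replicate 2 for 8 of the 22.

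Inhibitor replicate 4 was far above the other inhibitor libraries for division genes. Mki67 had 92.8 CPM there and at most 42.0 CPM in the other 5, Top2a 81.5 CPM and at most 35.7 CPM, and Kif4 15.6 CPM and at most 4.10 CPM. Kif22 had 20.1 CPM there and at most 8.73 CPM elsewhere, and Tacc3 29.2 CPM and at most 16.8 CPM. The same library was highest for Vim, at 28.7 CPM against at most 17.8 CPM, and for the interferon-induced chemokines Cxcl10, at 365.1 CPM against at most 149.8 CPM, and Cxcl9, at 112.1 CPM against at most 47.9 CPM. It was lowest for the BH3-only gene Bmf, at 74.9 CPM against at least 91.5 CPM.

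Vehicle replicate 2 was far above the other vehicle libraries for monocyte and lipid-associated genes. Chil3 had 42.0 CPM there and at most 8.92 CPM in the other 4, and Ly6c2 17.8 CPM and at most 7.40 CPM. Lpl had 99.9 CPM and at most 42.4 CPM, and Lgals3 106.6 CPM and at most 42.5 CPM. Cxcl10 had 306.3 CPM and at most 154.5 CPM, Bcl2a1b 316.6 CPM and at most 195.4 CPM, E2f1 28.2 CPM and at most 18.3 CPM, and Sh3bp2 144.2 CPM and at most 104.6 CPM.

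The remaining 5 were single genes. Vehicle replicate 5 was highest for Ctss, at 15461 CPM against at most 11846 CPM, and for H2-DMb2, at 141.2 CPM against at most 66.3 CPM. Vehicle replicate 3 was highest for Scd2, at 155.4 CPM against at most 106.1 CPM, and vehicle replicate 4 for Ccne2, at 8.66 CPM against at most 6.29 CPM. Inhibitor replicate 5 was highest for Tgfbr2, at 1035 CPM against at most 645.3 CPM.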

How the results depend on the processing

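The count of genes called in resting microglia was 0 under every setting run except DESeq2, which gave 16, and it ran from 0 to 7 when each library was left out in turn, the 7 coming without inhibitor replicate 4. For the interaction against activated microglia DESeq2 gave 82, the fit of all 33 libraries gave 1, and leaving out single libraries gave 0 to 1, the 1 coming without activated inhibitor replicate 3 or 6 or activated vehicle replicate 4. For that against blood-derived phagocytes DESeq2 gave 14 and leaving out libraries 0 to 1, the 1 without phagocyte vehicle replicate 4 or 5. The cause of these differences was not tested. The 116 genes, taken by the naming rule or chosen after their values were seen, had 2318 alternative values. Of these, 2198 kept direction and side of the threshold, 19 passed it only in the alternative, and 101, in 29 genes, changed sign. All 101 belong to genes whose main log2 fold change lay within its SE of 0, and 0 of them had an adjusted p under 0.05. Mitosis genes lower at an unadjusted p under 0.05 numbered 24 of 50 in the main setting, 8 in the fit of all 33 libraries, 38 with detected genes as covariate, 41 on log2 FPKM and 45 with voom, and the median ran from -1.01 to -0.72. Leaving out libraries gave 14 (without vehicle replicate 2) to 47 (without inhibitor replicate 4), with medians from -1.14 to -0.66. S phase genes numbered 17 of 34 in the main setting, 3 in the fit of all 33 libraries, and 8 without vehicle replicate 2 to 23 without inhibitor replicate 4. G1 genes lower at that p were 4 in the main setting, 0 in the fit of all 33 libraries, and 7 with detected genes as covariate and without inhibitor replicate 4. Over all genes, 432 of 12226 were lower at that p in the main setting and 162 of 13449 in the fit of all 33 libraries. It was 490 of 12226 with detected genes as covariate, 688 of 24361 on log2 FPKM and 531 of 12226 with voom. Leaving out vehicle replicate 2 gave 301 of 12376, and leaving out inhibitor replicate 4 gave 575 of 12140. With the replicate block it was 354 of 12226. Whether replicate numbers pair the libraries is not given by the labels. Deviations of same-numbered libraries correlated at -0.18 to 0.40, highest for replicate 5, and so few values cannot settle it. With the replicate number as a block, edgeR called 0 genes, with 556 at an unadjusted p under 0.05, 42 of the 50 mitosis genes lower at that p; it also called 0 genes in both interactions and so changed no call. For genes of at least 10 CPM, a median half-width of 0.271 (log2) limits what could be seen, and genes below that level were less certain.

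The log2 fold changes of opposite sign to the main setting follow. Without a count filter it was Itgam at 0.00052. In the fit of all 33 libraries, they were Itgam at 0.012 and H2-D1 at 0.0094. On log2 FPKM, they were Itgam at 0.0018, H2-D1 at 0.020, Cd74 at 0.031, Aldoa at 0.0031 and Abca1 at 0.0078. With detected genes as covariate, they were Itgam at 0.037, Casp8 at -0.0028, Csf1 at -0.042 and Abca1 at 0.036. With the replicate block, they were Inpp5d at -0.0027, Casp8 at -0.0092, Ctsd at 0.037, Ctsb at 0.0098, H2-D1 at 0.065, Cd74 at 0.039, Aldoa at 0.057, Ccnd2 at 0.057 and Abca1 at 0.010. With voom, they were Bcl2a1b at 0.00031, Casp8 at -0.0064, H2-D1 at 0.040, Cd74 at 0.19, Itgb5 at -0.017, Aldoa at 0.034, Abca1 at 0.0076 and P2ry12 at -0.028. With sex as covariate, it was Casp8 at -0.00033. Leaving out each library in turn, log2 fold changes ran for Ptprc from -0.12 to 0.015, Itgam from -0.052 to 0.042, Inpp5d from -0.0012 to 0.071, Tgfbr1 from -0.0028 to 0.14, Bcl2a1b from -0.19 to 0.14, Casp8 from -0.026 to 0.031, Ctsd from -0.082 to 0.073, Ctsb from -0.18 to 0.065, Cxcl10 from -0.66 to 0.098 and H2-D1 from -0.093 to 0.12. They also ran for Cd74 from -0.22 to 0.21, Ctss from -0.079 to 0.058, C1qb from -0.077 to 0.036, C1qc from -0.10 to 0.023, Itgb5 from -0.045 to 0.049, Sirpa from -0.017 to 0.14, Tgfbr2 from -0.061 to 0.21, Aldoa from -0.095 to 0.12, Atp5a1 from -0.14 to 0.0026 and Ccnd2 from -0.23 to 0.12. The remaining ones ran for Ccnd3 from -0.16 to 0.0092, Bax from -0.10 to 0.016, Csf1 from -0.16 to 0.23, Spi1 from -0.020 to 0.16, Irf8 from -0.013 to 0.083, Abca1 from -0.082 to 0.071, P2ry12 from -0.045 to 0.20, Tmem119 from -0.011 to 0.15 and Mrc1 from -0.89 to 0.23.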

Other observations

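The log2 FPKM table also holds genes that are not in the count table, mostly non-coding RNAs and pseudogenes. Of 7940 such genes with a value that varied between the resting libraries, limma called 0; 232 had an unadjusted p under 0.05, of which 165 were lower and 67 higher with the inhibitor. Junos, an antisense RNA beside Jun, averaged 1.84 log2 FPKM with the inhibitor and 1.43 log2 FPKM with vehicle, a difference of 0.41 ± 0.16 (SE). The lincRNA Gm14005 averaged 1.35 log2 FPKM with the inhibitor and 1.87 log2 FPKM with vehicle, a difference of -0.53 ± 0.18. Both were chosen after their values were seen, and without stated strand use reads of an antisense RNA and its partner cannot be told apart.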
